A study of Mus musculus with 11 samples.

Results

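The major histocompatibility complex (MHC), named H2 in the mouse, was read here as the bins of a genome-wide methylation table that overlap chr17:33900001-37300000 (mm10), a stretch of 3.4 Mb that runs from H2-K to the H2-M genes. Of the 466039 bins of 500 bp in the table, 1064 lay in this stretch, and together they covered 15.6% of it. The measurement was made on mouse liver. Genomic DNA was sheared, a methyl-CpG-binding domain (MBD) protein pulled out the fragments with methylated CpGs, and these were sequenced, so that a bin with more methylated CpGs gathers more reads. The 11 libraries came from 2 inbred strains. The 6 DBA/2J libraries (MHC haplotype d) comprised 2 young females of 108 days, 2 mid-age females of 341 days and 1 mid-age male of 345 days, and 1 old female of 708 days. The 5 C57BL/6J libraries (haplotype b) comprised 2 young females of 107 days, 1 mid-age male of 308 days and 2 old females of 711 days. The labels name no treatment and no transgene in any library. Whether every library stands for its own animal is not stated, so the spread between these libraries may be technical in part. The edgeR p-values of bins below rest on a spread pooled over the bins of the table. The scatter of a single bin between libraries hardly enters them.

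The MHC holds the genes that present peptides to T cells. Class I molecules (H2-K, H2-D and the more divergent Q, T and M families) display peptides from inside the cell, and class II molecules (I-A and I-E, encoded by the H2-A and H2-E genes) display peptides taken up from outside. Class III, between them, holds complement, tumour necrosis factor and RNA-processing genes that present nothing. The region is among the most variable of the mouse genome: inbred haplotypes differ in sequence, and in the D, Q and T blocks also in which class I genes they carry. Hepatocytes express class I molecules, whereas class II molecules are found mainly on the antigen-presenting cells of the liver.

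The region was split at gene positions into 4 sub-blocks. H2-K and class II ran from 33900001 to 34564267 and held 255 bins, class III ran from Notch4 at 34564268 to 35262729 and held 420, H2-D/Q/T began at H2-D1 (35262730), ended at 36284226 and held 312, and H2-M filled the rest with 77. Bins were spread unevenly. No bin of the table had fewer than 40 reads over the 11 libraries or fewer than 3 CpGs. Many class I genes (H2-K1, H2-Q1, H2-Q2, H2-Q4, H2-Q10, H2-T23, H2-T10 and H2-M3 among them) had no bin in their body or in the 2 kb upstream, and were not analysed here.

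The stretches below carried the strain differences described in the results. Each is up to 300 bases of the mm10 reference, which is the C57BL/6J sequence, read on the plus strand from 5′ to 3′, with every CpG, the unit that the capture protein binds when it is methylated, in capitals. The DBA/2J sequence was not used here. The H2-Eb1 stretch lies across the start of coding exon 2 (chr17:34309509-34309808) and has 25 CpGs, the Ddx39b stretch over parts of a pair of adjacent coding exons and the intron between them (chr17:35253031-35253330, 12 CpGs), the Gm8810 stretch at the start of a class I-region pseudogene (chr17:36067501-36067800, 10 CpGs), and the intergenic stretch lies in the H2-T block (chr17:36231195-36231494, 32 CpGs).
H2-Eb1: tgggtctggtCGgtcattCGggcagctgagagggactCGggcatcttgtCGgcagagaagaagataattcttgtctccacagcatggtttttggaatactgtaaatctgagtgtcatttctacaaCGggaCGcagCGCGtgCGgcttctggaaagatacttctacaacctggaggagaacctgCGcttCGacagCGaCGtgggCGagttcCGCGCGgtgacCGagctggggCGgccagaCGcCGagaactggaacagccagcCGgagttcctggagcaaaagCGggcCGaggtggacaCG
Ddx39b: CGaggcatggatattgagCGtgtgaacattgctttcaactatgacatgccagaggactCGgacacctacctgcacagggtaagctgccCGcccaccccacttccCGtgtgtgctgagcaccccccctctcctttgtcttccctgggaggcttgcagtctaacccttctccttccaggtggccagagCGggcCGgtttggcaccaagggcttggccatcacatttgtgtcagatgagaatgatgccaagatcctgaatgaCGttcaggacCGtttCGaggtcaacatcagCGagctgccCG
Gm8810: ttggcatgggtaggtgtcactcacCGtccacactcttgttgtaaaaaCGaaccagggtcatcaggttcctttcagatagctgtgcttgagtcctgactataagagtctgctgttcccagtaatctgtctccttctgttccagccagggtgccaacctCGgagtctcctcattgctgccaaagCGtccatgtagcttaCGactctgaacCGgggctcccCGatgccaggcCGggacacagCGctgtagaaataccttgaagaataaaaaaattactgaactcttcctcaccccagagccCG
Intergenic H2-T: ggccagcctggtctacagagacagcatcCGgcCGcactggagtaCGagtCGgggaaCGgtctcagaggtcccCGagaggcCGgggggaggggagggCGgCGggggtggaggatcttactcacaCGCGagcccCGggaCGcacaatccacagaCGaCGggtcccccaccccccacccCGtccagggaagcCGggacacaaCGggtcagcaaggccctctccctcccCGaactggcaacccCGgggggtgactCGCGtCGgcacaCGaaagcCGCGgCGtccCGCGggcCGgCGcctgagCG
The intergenic and H2-Eb1 stretches are dense in CpGs, whereas the Ddx39b and Gm8810 stretches carry them singly.

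Library totals ran from 6888589 to 8541280 reads, of which 16691 to 23181, or 0.236% to 0.271%, fell in the region. The median region bin held 16 reads per library and 10 CpGs. The mean count in bins with more than 20 CpGs, over the overall mean of a library, was lowest in C57BL/6J young replicate 2 (1.21). It was 1.46 to 2.16 in the other 10 libraries. The next lowest were DBA/2J mid replicate 1 (1.46), old replicate 1 (1.48) and mid replicate 2 (1.48), against 1.90 and 1.98 in DBA/2J young. Without C57BL/6J young replicate 2, 67 bins of the region passed the strain test described next, and 61 of the 64 that passed with it did so again. Reads captured in a bin scale with its methylation, with the number of copies of its sequence and with how well the strain's DNA matches the reference, and these cannot be told apart from the files.

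DBA/2J and C57BL/6J differed at 64 of the 1064 MHC bins, 38 with more and 26 with fewer captured reads in DBA/2J (edgeR quasi-likelihood test with sex and age class in the model, Benjamini-Hochberg adjusted p under 0.05 over all 466039 bins). That is 6.02% of the region, against 2.39% of all bins in the table and 3.10% of the bins elsewhere on chromosome 17. The higher calls made up 38 of 1064 against a background of 0.79%, and the lower calls 26 of 1064 against 1.6%. Changes were spread over the sub-blocks unevenly. H2-D/Q/T had 34 called bins of 312 (10.9%, 18 higher and 16 lower), H2-K and class II had 14 of 255 (5.49%, 7 in each direction), class III had 14 of 420 (3.33%, 13 higher and 1 lower), and H2-M had 2 of 77 (2.60%, both lower). In 86 bins (8.08%) the CPM (read counts scaled for library depth) of all DBA/2J libraries lay above or below those of all C57BL/6J libraries, 45 above and 41 below, against 2.88% of all bins. Among bins with a mean of at least 20 reads, 23 of 373 were called and all were higher, because the lower calls all had smaller means. The young libraries alone (2 against 2) gave 22 calls, and the deposited relative methylation score tested with limma gave 42. For these settings no share in the whole table stands beside the counts, so they do not set the region against the background. In the edgeR model the mid-age term is set by the females DBA/2J mid replicates 1 and 2. Leaving out either hardly moves a strain change, so a call kept without them says little about its stability. Leaving out either male (DBA/2J mid replicate 3 or C57BL/6J mid replicate 1) is nearly the same fit. The sex term then takes up the other male.

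**Figure D1:**
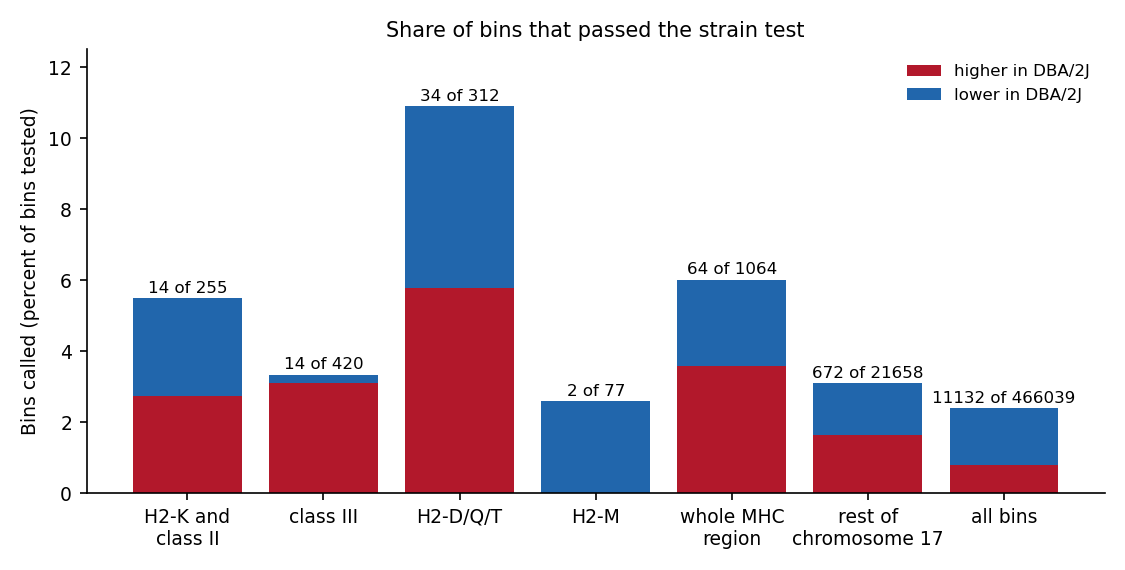
Share of bins that passed the strain test, in percent of the bins tested (vertical axis), for the 4 sub-blocks, the whole MHC region, the rest of chromosome 17 and all bins. Red is higher and blue lower in DBA/2J, and the numbers on the bars give called bins of bins tested. H2-D/Q/T has the tallest bar (10.9%), and all bins stand at 2.39%.

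**Figure D2:**
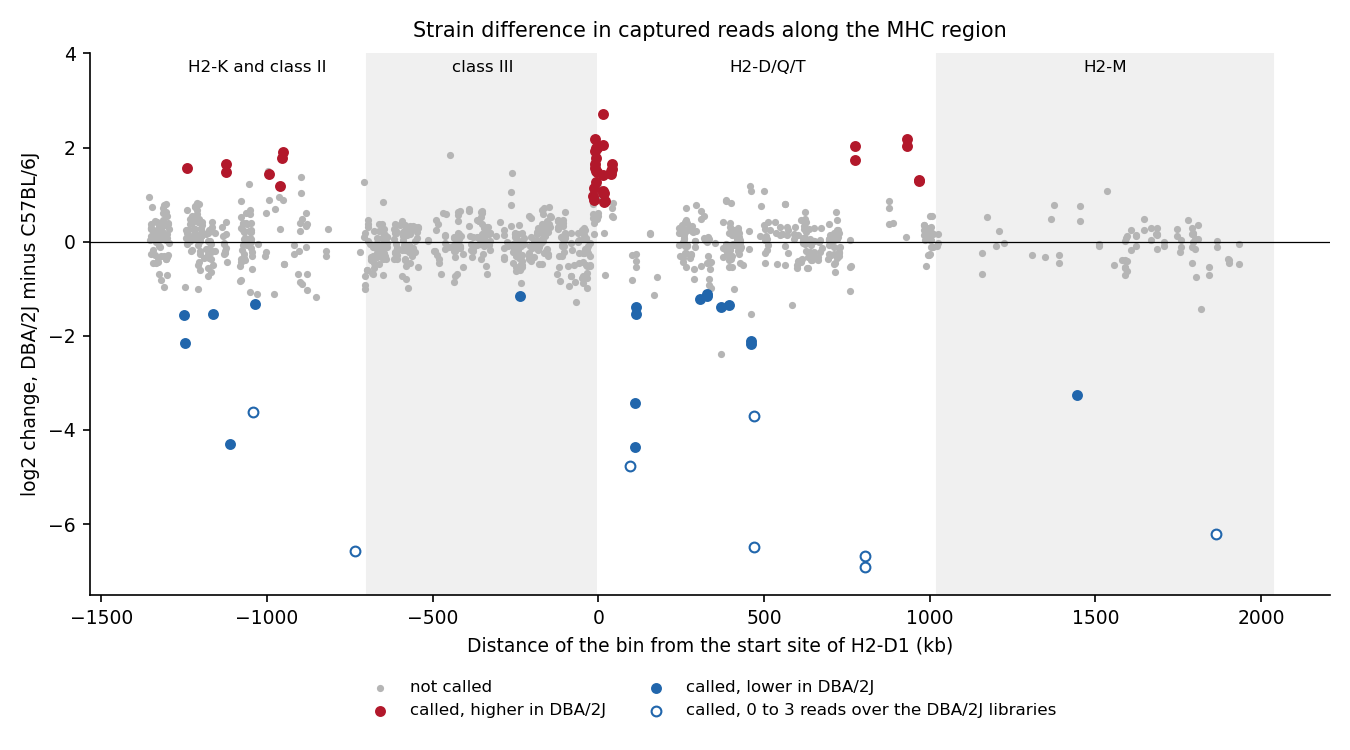
Strain difference of each of the 1064 bins (log2, DBA/2J minus C57BL/6J, vertical axis) against its distance from the start site of H2-D1 in kb (horizontal axis), with sub-blocks shaded in turn. Open circles mark called bins with 0 to 3 reads over the 6 DBA/2J libraries, whose fitted value depends on the prior count. Red points cluster at 0 kb, and class III to the left of them is almost free of called bins.

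The largest block of higher capture in DBA/2J lay across the border of class III and H2-D, from Ddx39b to the pseudogene Gm18734 (35247001 to 35305500, 58.5 kb). Ddx39b encodes an RNA helicase that acts in splicing and mRNA export, and H2-D1 the heavy chain of a classical class I molecule. The summed CPM of the 38 bins of the interval was 137.1 in the lowest DBA/2J library, 147.7 in the highest, and 66.1, 72.3, 61.2, 66.3 and 70.7 in the C57BL/6J libraries, in the order young 1, young 2, mid, old 1 and old 2. The strains did not overlap, and the means stood at 143.4 ± 4.35 (SD, n = 6) and 67.3 ± 4.36 (SD, n = 5), a ratio of 2.13. Of the 38 bins, 37 had a positive log2 change, 25 were called higher and 0 lower, and these 25 made up 65.8% of all higher calls in the region. The median log2 change of the 38 bins was 1.11. The interval was delimited after its values had been seen, so its totals are a description and carry no test. Of its bins, 3 have at least 1 near-identical other place in the reference genome.

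Within the interval, the called bins of Ddx39b lay over its body and 3′ end. The bin over exons 8 to 10 of its transcript with the longest coding sequence (35253001 to 35253500, 17 CpGs), from which the Ddx39b stretch was printed, held 44, 62.5 and 92 reads in the lowest, the median and the highest DBA/2J library. It held 11, 16, 15, 23 and 28 reads in the C57BL/6J libraries. The strains did not overlap, and the fitted change was 1.93 log2 (SE 0.26, edgeR adjusted p = 4.5e-11). The bin over coding exon 6 (35251001 to 35251500), which also covers Mir8094, held 23 to 44 reads in DBA/2J with a median of 32, and 2, 9, 5, 12 and 6 in C57BL/6J, again without overlap (2.18 log2, SE 0.30, adjusted p = 2.6e-10). Summed over the gene body and 2 kb upstream, Ddx39b rose by 1.14 on the log2 scale (SE 0.09, adjusted p = 3.1e-11). The small RNA genes Mir8094 (1.18) and Gm25128, a small nucleolar RNA (0.84), share their bins with Ddx39b, so they are not separate measurements.

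There were 4 runs of 3 or more adjacent called bins, 3 of them in this interval and the fourth near H2-Q4. The run over the 3′ end of Ddx39b (35252501 to 35254500, 4 bins) summed to 23.5 ± 4.06 CPM (SD, n = 6) in DBA/2J and 8.01 ± 1.52 CPM (SD, n = 5) in C57BL/6J, a ratio of 2.93. The next (35255501 to 35257500, 4 bins), between Ddx39b and H2-D1, summed to 15.1 ± 3.55 CPM and 4.04 ± 1.75 CPM, a ratio of 3.74. The third (35276001 to 35279000, 6 bins) entered the pseudogene Gm18733 and summed to 26.4 ± 2.09 CPM against 10.95 ± 2.37 CPM, a ratio of 2.42. In each of these 3 runs the lowest DBA/2J library lay above the highest C57BL/6J library. Without DBA/2J old replicate 1, each run held fewer called bins: 35254001 in the first (edgeR adjusted p = 0.0842), 35255501 in the second (0.57, and 0.0714 without DBA/2J mid replicate 3), and 35277501 (0.0899) and 35278501 (0.296) in the third lost their calls. The bin at 35278501 kept its call without C57BL/6J young replicate 2, and without DBA/2J mid replicate 1 or 2, which hardly enter the strain change. It lost the call without each of the others (adjusted p = 0.0506 to 0.296). The first bin of the third run (35276001 to 35276500, 6 CpGs) had the largest fitted increase in the region, with 16, 21.5 and 31 reads as lowest, median and highest in DBA/2J, and 1, 3, 1, 3 and 7 in C57BL/6J (2.71 log2, SE 0.40, adjusted p = 4.1e-09).

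**Figure D3:**
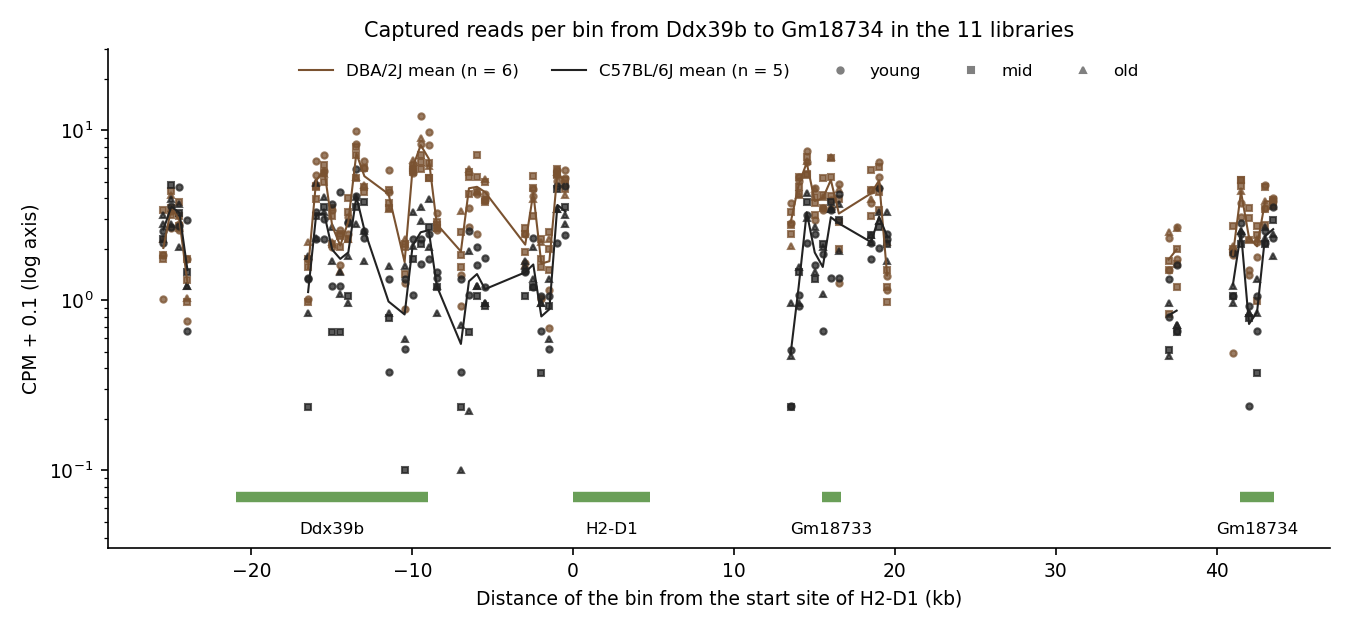
CPM per bin plus 0.1 on a log axis (vertical) in the 11 libraries around the Ddx39b to Gm18734 interval, against distance from the start site of H2-D1 in kb (horizontal). Lines are strain means, broken over gaps without bins, marker shapes give the age class, and green bars are genes. The DBA/2J line runs above the C57BL/6J line in 37 of the 38 bins of the interval.

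H2-D1 was called as a sum of 4 bins that all lie upstream of its start, none of which passed alone. The sum rose by 0.67 log2 (SE 0.17, adjusted p = 0.011), with 95 to 121 reads in the DBA/2J libraries and 46 to 73 in the C57BL/6J libraries, which do not overlap. The pseudogenes Gm18733 (0.85, SE 0.18, adjusted p = 0.0014) and Gm18734 (0.87, SE 0.16, adjusted p = 0.00039) were higher to a similar degree. The call of H2-D1 was lost without DBA/2J old replicate 1 or without either male, DBA/2J mid replicate 3 or C57BL/6J mid replicate 1 (adjusted p up to 0.124, edgeR). Leaving out either male is nearly the same fit. In class III before Ddx39b, 1 of 396 bins was called (0.25%, against 2.39% of all bins). This part was cut at Ddx39b with the calls known, so its low share follows in part from the cut. The called bin lay over coding exon 3 of Sapcd1 (35026501 to 35027000, -1.15 log2, SE 0.31, adjusted p = 0.015). It lost its call without DBA/2J mid replicate 3, DBA/2J old replicate 1, C57BL/6J young replicate 2 or C57BL/6J mid replicate 1 (adjusted p = 0.063 to 0.178).

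In the class II part, H2-Eb1, which encodes the beta chain of the class II molecule I-E, had the smallest p. Its bin over coding exon 2 (34309501 to 34310000, 35 CpGs), which holds the printed CpG-dense stretch, had 21, 36 and 48 reads as lowest, median and highest in DBA/2J. The same bin had 3, 11, 13, 4 and 12 reads in C57BL/6J, so that the strains did not overlap (1.90 log2, SE 0.28, adjusted p = 1.3e-08). The deposited relative methylation score of this bin, which is derived from the same counts, was 0.51 ± 0.026 (SD, n = 6) and 0.342 ± 0.086 (SD, n = 5). This exon codes for the peptide-binding domain of the beta chain, which is the most variable part of the class II genes between haplotypes. The intron bin before it (34309001 to 34309500) was also called (1.77 log2, SE 0.41, adjusted p = 0.0012, and 0.0875 without DBA/2J young replicate 2). As a gene, H2-Eb1 was higher by 0.81 log2 (SE 0.19, adjusted p = 0.0053). The antisense gene Gm20513, which overlaps the 5′ end of H2-Eb1, was higher by 1.20 log2 (SE 0.17, edgeR adjusted p = 2.9e-06). The 2 kb upstream of its start take in both called H2-Eb1 bins, so its sum is not a separate measurement. Its called bin at 34300501 lies in its own intron (1.18, SE 0.27, adjusted p = 0.0015, and 0.19 without DBA/2J old replicate 1).

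H2-Ab1, which encodes the beta chain of I-A, was called over coding exons 4 and 5 (34268001 to 34268500, only 4 CpGs). The bin held 10, 27 and 33 reads as lowest, median and highest in DBA/2J, and 10, 11, 8, 9 and 13 in C57BL/6J. DBA/2J mid replicate 2, at 10 reads, fell within the C57BL/6J range, and the other 5 DBA/2J libraries lay above it (1.44 log2, SE 0.28, adjusted p = 5.9e-05). The gene sum of H2-Ab1 was higher as well (0.59, SE 0.17, adjusted p = 0.038). It kept its call without C57BL/6J young replicate 2, and without DBA/2J mid replicate 1 or 2, which hardly enter the strain change. The call was lost without each of the other 8 libraries (edgeR adjusted p = 0.0589 to 0.176). The bin was called whichever library was left out.

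The other called genes of this sub-block differ in role. Ring1, a subunit of the Polycomb repressive complex, was higher in a bin over a coding exon (34021001 to 34021500), with 14, 14.5 and 22 reads in DBA/2J and 4, 3, 5, 7 and 7 in C57BL/6J (1.56 log2, SE 0.39, adjusted p = 0.0054, and 0.0891 without DBA/2J young replicate 1). Col11a2, a fibrillar collagen gene with 38 bins, was higher by 0.25 log2 (SE 0.06, adjusted p = 0.016), which is small but drawn from 745 to 848 reads in DBA/2J and 548 to 746 in C57BL/6J. Its call was lost without DBA/2J young replicate 2 (adjusted p = 0.0811), DBA/2J mid replicate 3 (0.0975) or C57BL/6J mid replicate 1 (0.0948). An intergenic bin 3307 bp from the start of H2-DMb2 (34139501 to 34140000, 22 CpGs) held 17, 20 and 29 reads in DBA/2J and 5, 5, 5, 5 and 12 in C57BL/6J, without overlap (1.64 log2, SE 0.34, adjusted p = 0.00015).

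Lower capture in DBA/2J was often a near absence of reads. No listed bin had fewer than 40 reads over the 11 libraries. A bin with hardly any DBA/2J read is therefore present only through its C57BL/6J reads. The ratios, floors, p-values and calls of such bins, here and below, are conditional on high C57BL/6J counts. Of the 26 lower calls, 13 had under 20 reads over the DBA/2J libraries. The bin 572 bp upstream of H2-DMb1 (34152001 to 34152500, 6 CpGs), a gene whose product helps to load peptides on class II molecules, had 0, 2, 1, 2, 0 and 0 reads in the DBA/2J libraries. It had 7, 11, 15, 8 and 19 in the C57BL/6J libraries, a ratio of C57BL/6J to DBA/2J of 15.1 by depth (95% interval 6.10 to 48.0, counting error only). This is the only bin counted for H2-DMb1, so the call of the gene is conditional in the same way. An intergenic bin at 34219001 had 3 reads over all DBA/2J libraries and 50 over the C57BL/6J libraries (ratio 20.9, 6.75 to 104.8; edgeR adjusted p = 0.0075, and 0.0724 or 0.0587 without DBA/2J young replicate 1 or 2), and an intergenic bin at 34527501, of which 99.0% is annotated repeat with 30 near-identical places, had 1 and 63 (ratio 79.0, 13.7 to 3170). An intergenic pair at 34013501 and 34014001 was lower without being empty, with 3, 5.5 and 6 reads in DBA/2J and 31, 10, 22, 24 and 29 in C57BL/6J in the second (-2.14 log2, SE 0.36, adjusted p = 5.9e-07), and with 3 and 4 near-identical places in the reference.

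**Figure D4:**
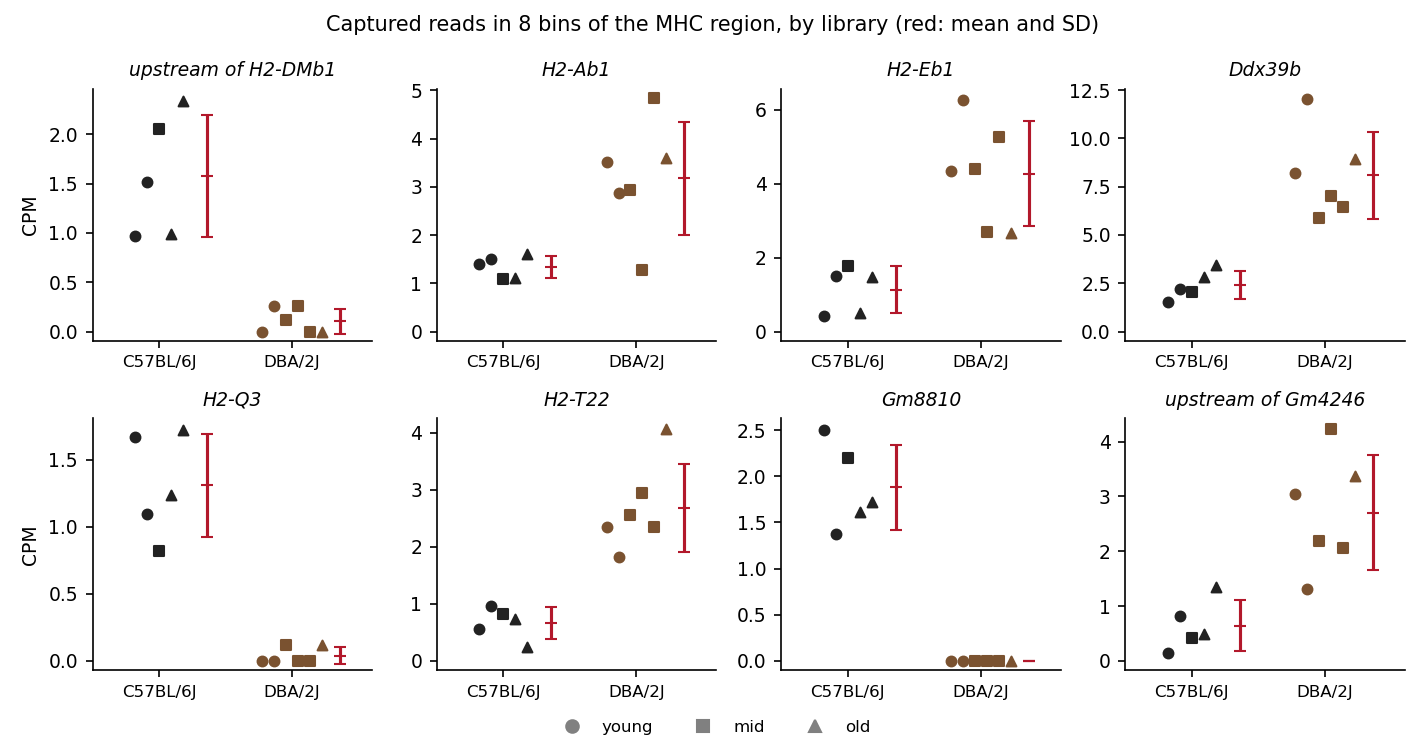
CPM (vertical axis) of 8 called bins in each library, with C57BL/6J libraries in black and DBA/2J libraries in brown, marker shapes for age class, and the mean and SD of each strain in red. H2-Eb1, Ddx39b and H2-T22 have no overlap between the strains, Gm8810 is at 0 in all 6 DBA/2J libraries, and 1 DBA/2J library of H2-Ab1 lies in the C57BL/6J range.

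From the end of the Ddx39b to Gm18734 interval to the base before H2-T24, all 14 called bins of 258 were lower in DBA/2J (5.43%, against 1.6% of all bins called lower). Besides Q genes, this stretch holds genes such as Pou5f1, Cdsn and Flot1. This stretch was cut between higher calls after the calls had been seen, so the shared direction follows in part from the cut. The Q genes encode class I molecules with few alleles. The bin over exons of H2-Q3 (35359001 to 35359500, 37 CpGs) had 0, 0, 1, 0, 0 and 1 reads in the DBA/2J libraries and 12, 8, 6, 10 and 14 in the C57BL/6J libraries (ratio 31.4, 95% interval 8.24 to 266.1). A run of 4 called bins 3617 to 5117 bp from the start of H2-Q4 (35374001 to 35376000) summed to 1.93 ± 0.224 CPM (SD, n = 6) in DBA/2J and 7.88 ± 1.84 CPM (SD, n = 5) in C57BL/6J, a ratio of 0.245, and 3 of its 4 bins have near-identical copies elsewhere. The first 2 bins were called whichever library was left out. The third (35375001) lost its call without DBA/2J old replicate 1 or C57BL/6J young replicate 1 (edgeR adjusted p = 0.0638 and 0.105), and the fourth (35375501) without DBA/2J young replicate 2, mid replicate 3 or old replicate 1 or C57BL/6J young replicate 1, mid replicate 1 or old replicate 2 (adjusted p = 0.06 to 0.284). H2-Q6 (-1.12 log2, adjusted p = 0.22) and H2-Q7 (-0.75, adjusted p = 0.53), each with 1 bin, did not pass. Farther on, between the Q and T genes, the intergenic bin at 35733001 had 0 reads in all 6 DBA/2J libraries and 8, 8, 14, 17 and 10 in C57BL/6J, which by a floor of 3 reads over the DBA/2J group is at least 23.8-fold lower. Its neighbour at 35732501 had 3 reads over DBA/2J and 56 over C57BL/6J (ratio 23.4, 7.61 to 117.0). The bin at 35723001 was lower with reads in every library, 1, 3.5 and 10 in DBA/2J and 19, 20, 17, 29 and 29 in C57BL/6J (-2.18 log2, SE 0.37, adjusted p = 9.3e-07).

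In the H2-T block both directions occurred side by side. H2-T22, a non-classical class I molecule that some gamma-delta T cells recognise, was higher in DBA/2J in both of its bins. The bin at 36037501 (9 CpGs) held 14, 20.5 and 35 reads in DBA/2J, and 4, 7, 6, 6 and 2 in C57BL/6J, without overlap (2.04 log2, SE 0.35, adjusted p = 1.5e-06, and 0.0611 without DBA/2J old replicate 1). It has a near-identical copy within the region, so part of its reads may belong to another T gene. The adjacent bin at 36037001 has no such copy and was higher as well (1.75, SE 0.35, adjusted p = 0.00011, and 0.129 without DBA/2J old replicate 1). The gene sum rose by 1.86 log2 (SE 0.30, adjusted p = 3.1e-05). The pseudogene Gm8810, farther along, went the other way: its bins at 36067001 and 36067501 had 0 reads in all 6 DBA/2J libraries, and 13, 14, 15, 8 and 6 reads and 18, 10, 16, 13 and 14 reads in C57BL/6J. By the same floor they were at least 23.4-fold and 29.7-fold lower. The bin at 36067501, from which the Gm8810 stretch was printed, is 49.4% annotated repeat and has 439 near-identical places in the reference, 1 of them in the region, whereas the bin at 36067001 has none. Of the 1064 bins of the region, 3 had no DBA/2J read and 0 had no C57BL/6J read. In the whole table of 466039 bins these counts were 734 and 7, so the imbalance is not particular to the region.

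The bins with the most reads among the called ones lay between T genes, next to the pseudogene Gm18604. The bin at 36231001 (36 CpGs), from which the intergenic stretch was printed, held 101, 135 and 170 reads in DBA/2J, and 42, 42, 78, 59 and 88 in C57BL/6J, without overlap (1.28 log2, SE 0.24, adjusted p = 1.1e-05). Its neighbour at 36231501 (13 CpGs) was higher by 1.31 log2 (SE 0.24, adjusted p = 7.1e-06), with DBA/2J mid replicate 1, at 74 reads, falling just below the highest C57BL/6J library at 76. The pseudogene Gm4246 was higher as a gene by 2.12 log2 (SE 0.40, adjusted p = 0.00041), with 14 to 53 reads in DBA/2J and 1 to 17 in C57BL/6J, and 1 of its bins (36194501) has a near-identical copy outside the region. Its upstream bin at 36195001 overlaps between strains in 1 DBA/2J library, young replicate 2 at 10 reads against 11 in C57BL/6J old replicate 2.

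H2-M, the most distal sub-block, had 2 called bins, both lower in DBA/2J. The bin 154 bp upstream of the pseudogene Gm20523 (36707001 to 36707500) had 0, 0, 2, 3, 4 and 1 reads in DBA/2J and 11, 6, 16, 11 and 15 in C57BL/6J (ratio 7.40, 95% interval 3.76 to 16.2), and its sequence lies in a repeat with at least 500 near-identical places. An intergenic bin at 37126001 had 2 reads over DBA/2J and 51 over C57BL/6J (ratio 32.0, 8.41 to 271.2). Mog, a myelin gene, and Gabbr1, a GABA receptor subunit gene, had log2 changes of -0.10 and -0.02 and did not pass.

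At the level of genes, 184 of the 323 annotated genes of the region had a bin in their body or 2 kb upstream, and 19 of them were called, 12 higher and 7 lower in DBA/2J, against 3.63% of all 29366 genes tested. Some called genes share bins, as Gm20513 does with H2-Eb1, so the 19 are not all separate measurements. A list of 54 genes of antigen presentation, complement and neighbouring functions had 34 measured members. H2-Ab1, H2-Eb1, Ddx39b, H2-D1 and H2-T22 rose and H2-DMb1 and Ltb fell, while the median of the 34 was -0.02 log2, against 0.00028 for all genes. Ltb, which encodes lymphotoxin beta and shares its bins with Mir6973a, held 9 to 17 reads in DBA/2J and 23 to 32 in C57BL/6J (-1.06 log2, SE 0.30, adjusted p = 0.034). It kept its call without C57BL/6J young replicate 1 or old replicate 2, and without DBA/2J mid replicate 1 or 2, which hardly enter the strain change. The call was lost without each of the others (adjusted p = 0.0591 to 0.142). The peptide supply genes did not pass: Tap1 (-0.05, SE 0.11) and Tap2 (0.16, SE 0.11), which move peptides into the endoplasmic reticulum, Psmb8 (0.05, SE 0.13) and Psmb9 (-0.08, SE 0.12) of the immunoproteasome, and Tapbp (0.08, SE 0.11), which bridges class I molecules to the transporter. The complement gene C2 (0.06, SE 0.11) and Tnf (-0.07, SE 0.20) did not pass either. Of 30 antigen presentation genes outside the MHC, such as the class II transactivator Ciita (0.04, SE 0.11) and the class I transactivator Nlrc5 (0.06, SE 0.08), 23 were measured and 0 were called (edgeR), which is near the 3.63% of all genes. Of the 23, 3 had an unadjusted p under 0.05, against 11.9% of all genes.

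In windows of 100 kb, 5 of the 32 windows of the region were called, against 6.57% of 22284 windows in the genome. The window from 35200001, which holds Ddx39b and H2-D1, rose by 0.60 on the log2 scale (SE 0.05, adjusted p = 1.3e-12), with 195.8 to 208.9 CPM in DBA/2J and 122.3 to 148.8 CPM in C57BL/6J. The windows from 36100001 (0.83, SE 0.16) and 36200001 (0.50, SE 0.08), in the T block, and from 34300001 (0.30, SE 0.08), around H2-Eb1, were higher as well, and the window from 37100001 was lower (-0.42, SE 0.13, adjusted p = 0.041). The last was called only when the library left out was DBA/2J young replicate 1, C57BL/6J young replicate 1 or 2 or C57BL/6J old replicate 2 (adjusted p = 0.0556 to 0.372 without each of the others), and the H2-Eb1 window lost its call without DBA/2J mid replicate 3 (adjusted p = 0.12), DBA/2J old replicate 1 (0.0581) or C57BL/6J mid replicate 1 (0.117). Over whole sub-blocks, the DBA/2J to C57BL/6J ratio of summed CPM was 1.05 for H2-K and class II, 1.04 for class III, 1.03 for H2-D/Q/T and 0.943 for H2-M, with exact two-sided permutation p of 0.242, 0.238, 0.463 and 0.156 (6 against 5 libraries, smallest possible p 0.00433; 0.485 to 0.686 after Benjamini-Hochberg adjustment over 8 tests). With library totals in place of normalization factors, H2-K and class II (0.09 log2) and class III (0.08 log2) reached unadjusted exact permutation p of 0.0303 and 0.0173.

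The share of called bins was also read by features that the choice of the region did not use. Outside gene bodies, 38 of 182 bins were called (20.9%), against 3.55% of such bins in the whole table. Within gene bodies, 26 of 882 were called (2.95%), against 1.85%. Among bins with more than 20 CpGs, 7 of 43 were called (16.3%), against 9.03% in the table. Bins more than 50% covered by annotated repeats were called in 10 of 110 cases (9.09%), against 6.53%. The opposite classes stood above the table too. Bins with 3 to 5 CpGs were called at 8.79% against 2.60%, and bins with up to 50% repeat at 5.66% against 1.95%. The excess over the table was thus not confined to CpG-dense or repeat-rich bins. A near-identical copy elsewhere in the reference (at least 95% identity over at least 150 bases) was present in 13 of the 64 called bins, and 13 of the 61 bins with a copy were called, against 51 of the 1003 without. Copies were searched for the bins of the region alone, so no share in the whole table stands beside these counts. These are counts within 1 region, and the features overlap one another.

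Of 5 measured hepatocyte genes, 3 (Alb, Apoe and Apoa1, which encode plasma proteins) were called higher in DBA/2J, against 3.63% of all genes called in either direction, and 4 had an unadjusted p under 0.05, against 11.9% of all genes. Of the 7 lymphocyte, 4 Kupffer and myeloid and 5 endothelial and stellate genes measured, 0 were called (edgeR), and 2, 0 and 0 had an unadjusted p under 0.05. Lists this short would hold less than 1 called gene at the share of all genes, so these counts of 0 say nothing particular about those cell types. The sum of Alb was lowest among the DBA/2J libraries in mid replicates 1 and 2, at 3.18 and 6.92 CPM, against 16.4 to 21.9 CPM in the other 4 and 1.98 to 7.81 CPM in C57BL/6J. In those 2 libraries the Ddx39b to Gm18734 interval stood at 137.1 and 141.1 CPM, and in the other 4 at 140.9 to 147.7 CPM. Captured DNA gives no measure of expression, and the part of cell composition in the strain calls was not tested.

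With age, no MHC bin changed past the threshold. Old against young, with strain and sex in the model, gave 0 called bins of 1064 (edgeR), against 0.00236% of all bins, and 54 region bins (5.08%) had an unadjusted p under 0.05, against 5.18% of all bins; limma-voom and DESeq2 called 0 as well. Mid against young gave 0 against 0.003%, with 45 bins (4.23%) at an unadjusted p under 0.05 against 5.01%. The strain by age interaction, fitted on age in days, gave 0 against 0.000858%, with 93 bins (8.74%) at an unadjusted p under 0.05 against 8.46%. At the gene level, 0 of 184 genes were called for old against young, against 0.0204% of all genes, with 13 (7.07%) at an unadjusted p under 0.05 against 7.19% of all genes.

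The smallest age p-values of the region fell on Trim31, which encodes a RING-finger ubiquitin ligase. Its bin over a coding exon at 36909501 held 4, 9, 8 and 6 reads in the young libraries (DBA/2J 1 and 2, C57BL/6J 1 and 2) and 35, 14 and 21 in the old ones (DBA/2J, C57BL/6J 1 and 2). All old libraries lay above all young ones, but the change of 1.71 log2 (SE 0.38) had an adjusted p = 0.165 in edgeR. The adjacent bin at 36909001 held 5, 8, 11 and 11 reads in the young libraries and 41, 14 and 22 in the old ones (1.43, SE 0.35, adjusted p = 0.297). The sum over Trim31 was 1.54 log2 (SE 0.34) with an adjusted p = 0.114 in edgeR. This p fell to 0.0254 without C57BL/6J young replicate 2, the library with the lowest relative count in CpG-dense bins. The 3 smallest p-values in each direction were taken. The remaining higher bin lay in Tnxb (1.12 log2, adjusted p = 0.77), an extracellular matrix gene, and the 3 lower bins in Ppp1r10 (-1.66, adjusted p = 0.781), Prrc2a (-0.95, adjusted p = 0.818) and Vps52 (-0.97, adjusted p = 0.881). For mid against young the smallest p in each direction fell on Trim26 (1.70, adjusted p = 0.617), where DBA/2J mid replicate 2 alone held 34 reads against 2 to 18 elsewhere, and on Slc39a7, a zinc transporter gene (-1.08, adjusted p = 0.904). For the interaction, in log2 per 100 days, they fell on H2-M10.5 (0.46, adjusted p = 0.242) and Skiv2l (-0.32, adjusted p = 0.228).

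Summed over sub-blocks, the ages overlapped except in H2-M. There the young libraries stood at 140.5, 138.7, 142.0 and 147.0 CPM and the old ones at 156.6, 153.6 and 158.3 CPM, which do not overlap. The ratio of 1.10 (156.2 ± 2.40, SD, n = 3, over 142.0 ± 3.55, SD, n = 4) had an exact two-sided permutation p of 0.0571, the smallest that 3 against 4 libraries allow, and 0.457 after adjustment over 8 tests. The mid libraries ran from 139.0 to 171.3 CPM and spanned both. The old to young ratio was 0.977 for H2-K and class II, 0.967 for class III and 1.01 for H2-D/Q/T, with exact p of 0.80, 0.514 and 0.80.

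**Figure D5:**
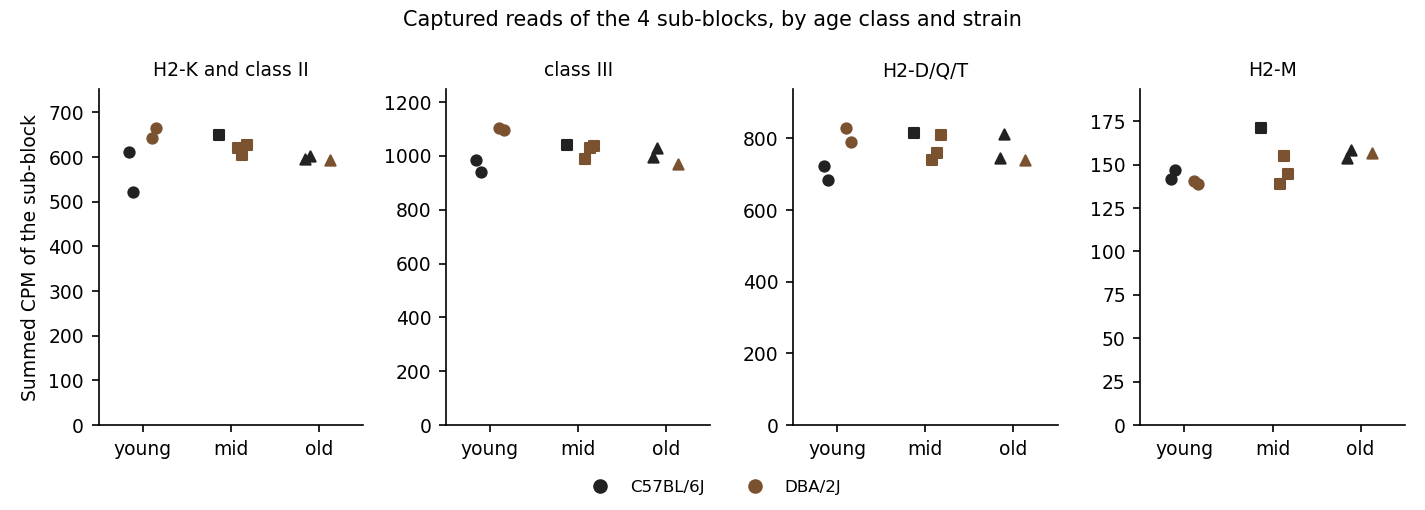
Summed CPM of each sub-block (vertical axes, from 0) by age class, 1 point per library, C57BL/6J in black and DBA/2J in brown. In H2-M the 3 old libraries lie above the 4 young ones, and in the other 3 sub-blocks the young and old libraries overlap.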

How the data were processed

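The authors deposited raw read counts and relative methylation scores for 500 bp bins of 11 MBD-captured liver DNA libraries, per the file headers (MEDIPS R package). The score, a fraction from 0 to 1 that corrects counts for CpG density, and the CpG number of each bin, a score called coupling factor, were deposited by the authors. FastQC, Trimmomatic 0.30, SAMtools and edgeR are named in the submitters' processing notes with build mm10, and the aligner is not given in the sources used here. CpG numbers equalled those of the reference in 100% of bins, so coordinates are mm10, and genes are from GENCODE.

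Counts were fitted over all 466039 bins with edgeR 4.0.16 (quasi-likelihood, TMM, common dispersion with a biological coefficient of variation of 19.2%), with strain, sex and age class in the model. The spread used for a bin came almost wholly from the other bins (4723 prior against 6 residual degrees of freedom). Mid-age level comes from 2 DBA/2J females, because the sex term takes up both males. These 2 females therefore hardly enter the strain change. Sums over genes (body and 2 kb upstream) and 100 kb windows were fitted the same way, and CPM use TMM factors. Gene CPM are scaled to the total of the gene sums. Sub-block sums were compared with exact permutation tests (scipy 1.17.1). Near-identical copies were found with minimap2 (at least 95% identity over 150 bases). The fit was run on simulated counts with the same spread in every bin. That run cannot show how the p-values behave where bins differ in scatter. Alternatives used DESeq2 1.42.0 and limma 3.58.1. Intervals and floors cover counting error only, since reads carry no molecular identifiers.

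Called bins were named by p within each sub-block, at most 6 a direction and 1 a gene, plus runs of 3 or more. Called bins next to these, the Ddx39b to Gm18734 interval and the stretches before and after it were added after their values were seen. The members, sub-blocks and gene lists were chosen with earlier results of these data known.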

Additional observations from a re-analysis of the deposited data

Results flagged for a closer look

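In 99 groups of libraries (42 named bins and 5 sums, by strain, and the sums also in the young class), 4 had a library far from the rest of its group, where chance gives about 1 in 20. The intergenic bin at 34139501 stood at 1.478 CPM in C57BL/6J old replicate 2, against 0.618 to 0.695 CPM in the other C57BL/6J libraries. The bin at 34527501 stood at 0.1279 CPM in DBA/2J mid replicate 2, which is its only DBA/2J read. C57BL/6J young replicate 1 was low in 2 pseudogene bins of the Ddx39b to Gm18734 interval. It stood at 1.252 CPM in the Gm18733 bin at 35278501, against 3.30 to 3.70 CPM in the other C57BL/6J libraries, and at 0.1391 CPM in the Gm18734 bin at 35304501, against 0.686 to 0.824 CPM. The call of the Gm18733 bin was lost without that library, and without 7 of the other 10.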

How the results depend on the processing

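No bin called for strain changed direction under any of the 22 other settings that tested it. Of the 64 calls, 33 held whichever library was left out, 46 with DESeq2, 50 with limma-voom and 63 with an offset by CpG class. Leaving out 1 library gave 46 to 67 strain calls in bins, 13 to 19 in genes and 3 to 6 in windows. The 3 window calls came without DBA/2J mid replicate 3 or C57BL/6J mid replicate 1, the males, which is nearly the same fit. The strain count was 23 with a mean of at least 20 reads, where fewer bins are tested, 42 with the relative methylation score and 22 in the young libraries alone, and windows of 50 kb gave 9. No share in the whole table stands beside the counts of these settings. For ages, 3 settings called 1 item: the intergenic bin at 37126001 for mid against young with the score (adjusted p = 0.0435), a Hspa1l bin at 34978001 for the interaction (0 to 1 calls when 1 library is left out, adjusted p = 0.0257 without DBA/2J old replicate 1), and the Trim31 sum for old against young (0 to 1 calls, without C57BL/6J young replicate 2). These names were chosen after their values were seen, and the cause was not tested. With library totals, the log2 strain ratios reached 0.06859 (exact permutation p = 0.0216) for the whole region, 0.09248 for H2-K and class II and 0.07768 for class III. The old to young log2 ratio, called nowhere, changed sign when 1 library was left out for the whole region (-0.05972 to 0.0206), H2-K and class II (-0.1018 to 0.01101) and H2-D/Q/T (-0.02557 to 0.06665). At a median of 16 reads a bin, the strain change of a region bin had a median standard error of 0.295 on the log2 scale. No paired analysis was possible because the labels give the groups no shared replicate numbers.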
